A study of Mus musculus with 8 samples.

Results

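Small RNA that came down with an antibody to MVH from adult mouse testis was set against small RNA that came down with a control antibody to acrosin (ACR). MVH, the mouse vasa homolog DDX4, is an RNA helicase of germ cells and a marker of the chromatoid body, and acrosin is a protease of the acrosome. Both precipitates came from C57BL/6 mice at least 6 weeks old, with no transgene or treatment named. Cells of collagenase-dissociated seminiferous tubules were fixed with formaldehyde, lysed and sonicated, and a second, filtered pellet was the input of both precipitations. RNA of 19 to 33 nt was taken from a gel for sequencing. The MVH precipitate has 2 libraries, which the deposited table gives as 1 column, and the ACR precipitate has 1 library. The whole lysate before pelleting has 1 library, which stands beside the ACR library in its table. No label says whether the 2 MVH libraries came from separate animals.

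A feature was compared when the MVH table and the ACR table listed it under the same symbol and locus and its lysate value was at least 5 FPKM (reads scaled to feature length and library size). This left 1265 features of 1825 shared ones, out of 2543 in the ACR table and 8959 in the MVH table. They were 180 numbered piRNA clusters, 159 microRNA genes, 47 genes of small structured RNA, 119 assembled transcripts without annotation and 760 other named genes. The feature just inside the lysate minimum, 4930404N11Rik, had 5.03 FPKM in the lysate and the one just outside, Gzf1, had 4.99 FPKM. The tables were normalized separately, so levels are compared as ranks, as shares of reads within a library, or as log2(FPKM + 1) less the median of the piRNA clusters in the same column. That median was 483 FPKM in the MVH precipitate, 4.24 FPKM in the ACR precipitate and 746 FPKM in the lysate.

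The chromatoid body is a perinuclear granule of round spermatids that holds MVH, PIWI proteins, microRNA pathway proteins and RNA. In the adult testis, pachytene piRNAs are cut from long transcripts of many genomic clusters and are bound by the PIWI proteins MIWI and MILI. MicroRNAs are cut from hairpins by Dicer, are bound by Argonaute proteins and pair with their targets mainly through the seed, bases 2 to 8 from the 5′ end.

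The mature microRNAs below come from genes that the results turn on: several whose shares of microRNA reads differed between the precipitates, and relatives or neighbours they are compared with. The deposited values count reads per hairpin locus and do not separate its arms, so each sequence is the arm best known as the mature form. Sequences are from RefSeq (GRCm38.p6), where 144 of the 159 microRNA genes were found, and capitals mark the seed.
miR-34a-5p: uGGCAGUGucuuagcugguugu
miR-34b-5p: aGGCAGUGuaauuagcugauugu
miR-449a-5p: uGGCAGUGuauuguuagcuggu
miR-100-5p: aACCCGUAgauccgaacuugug
miR-99a-5p: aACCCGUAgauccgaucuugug
miR-125a-5p: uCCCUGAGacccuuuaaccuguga
let-7d-5p: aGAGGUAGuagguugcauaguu
miR-30a-5p: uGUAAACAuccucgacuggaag
miR-451a: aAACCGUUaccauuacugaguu
miR-425-5p: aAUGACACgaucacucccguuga
miR-191-5p: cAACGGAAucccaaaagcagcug
miR-18a-5p: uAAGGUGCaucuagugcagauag
miR-20a-5p: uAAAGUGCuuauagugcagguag
miR-205-5p: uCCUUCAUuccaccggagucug
miR-741-3p: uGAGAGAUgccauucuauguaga
miR-34a, miR-34b and miR-449a share the seed GGCAGUG, and miR-100 and miR-99a share ACCCGUA. miR-18a and miR-20a come from 1 transcript, and their seeds are written AAGGUGC and AAAGUGC.

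The FPKM values of short loci were found to be whole multiples of a fixed step once divided by the effective length that Cuffdiff gives a locus, and a step was taken as 1 read. In the ACR column all 49 microRNA loci under 200 bp that were above 0 came out whole within 0.01 read, as did 113 of 138 piRNA clusters. With a mean fragment length set 10 bases longer, 17 of the 49 came out whole. The MVH column followed sums of 2 steps with a ratio of 1.97, which were taken as the reads of its 2 libraries. The smaller step is called the deeper library, since the labels do not tie a step to a replicate. Reads of both MVH libraries could be told apart at 78 of 101 microRNA loci under 200 bp above 0 and at 25 piRNA clusters, those with low MVH values. Intervals given on reads are exact or Wilson 95% intervals and cover counting error only. Reads without molecular identifiers are not independent molecules. With 1 ACR library, no test between the precipitates was possible.

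The ACR library was shallow. It held 240 reads on 102 microRNA loci under 200 bp, 5295 reads on 155 piRNA clusters with whole reads and about 10865 reads on 720 named genes of known transcript length. The lysate held 145842 and 5348099 reads on the same microRNA loci and clusters. One ACR read at a microRNA locus was worth 203 to 3800 FPKM, with a median of 1560, against a median of 0.839 FPKM at a cluster and 1.42 FPKM at a named gene.

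Relative to piRNA cluster reads, microRNA reads were more frequent in the ACR precipitate than in the MVH precipitate. Of the reads on microRNA loci and clusters in the ACR library, 4.34% lay on microRNA loci (Wilson interval 3.83 to 4.91). In the MVH column the corresponding share was 1.09%, and in the lysate it was 2.65% (2.64 to 2.67). The ratio of microRNA to cluster reads was 4.1 times higher in the ACR precipitate than in the MVH column, and 2.46 times higher in the lysate than in the MVH column. A single cluster, piRNA_cluster_177, which was classed as a ribosomal RNA-like locus, held 38.1% of the ACR cluster reads. Without it the ACR share was 6.82% (6.04 to 7.7), the MVH share 1.14%, and the ratio of ratios 6.35. The gap was smaller with the approximate reads on named genes in the total, which were 66.2% of it in the ACR precipitate, 7.61% in the MVH column and 3.12% in the lysate. MicroRNA reads were then 1.46% in the ACR precipitate, 1.01% in the MVH column and 2.57% in the lysate, so the ACR share lay below that of the lysate.

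The 2 MVH libraries differed from each other in the same quantity. Over the 79 microRNA loci and 25 clusters resolved into both libraries, the deeper library had 605 microRNA reads and 740 cluster reads, a microRNA share of 45% (42.3 to 47.7). The shallower library had 302 and 84 reads, a share of 78.2% (73.9 to 82.1). The ACR library had 159 and 8 reads, a share of 95.2% (90.8 to 97.6), and the lysate had 79% (78.7 to 79.3). Over these loci the ACR share was above those of both MVH libraries and of the lysate, with no overlap of the counting intervals. A locus could be resolved only where its MVH reads were few, so the set was chosen by MVH values. Of its 25 clusters, 20 were at 0 in the ACR precipitate. The shares therefore describe this set and not all loci.

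Over the same resolved loci, the ratio of microRNA to cluster reads in the ACR library was 24.3 times that of the deeper MVH library (11.9 to 57.7). It was 5.53 times that of the shallower one (2.59 to 13.5). Between the MVH libraries themselves it was 4.4 times higher in the shallower one (3.36 to 5.8). The shallower library was close to the lysate, which had 1.05 times its ratio (0.812 to 1.34). The lysate had 4.6 times the ratio of the deeper library (4.12 to 5.14). All 25 clusters had more reads in the deeper library, 8.81 times as many in sum (7.02 to 11.2), while microRNA reads were 2 times as many (1.74 to 2.31). piRNA_cluster_15 had 99 reads in the deeper and 11 in the shallower library, and piRNA_cluster_57 had 78 and 4. Thus the gap between the precipitates and the gap between libraries of the MVH precipitate were of similar size when the shallower library was used, and why the MVH libraries differ was not tested.

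**Figure D1:**
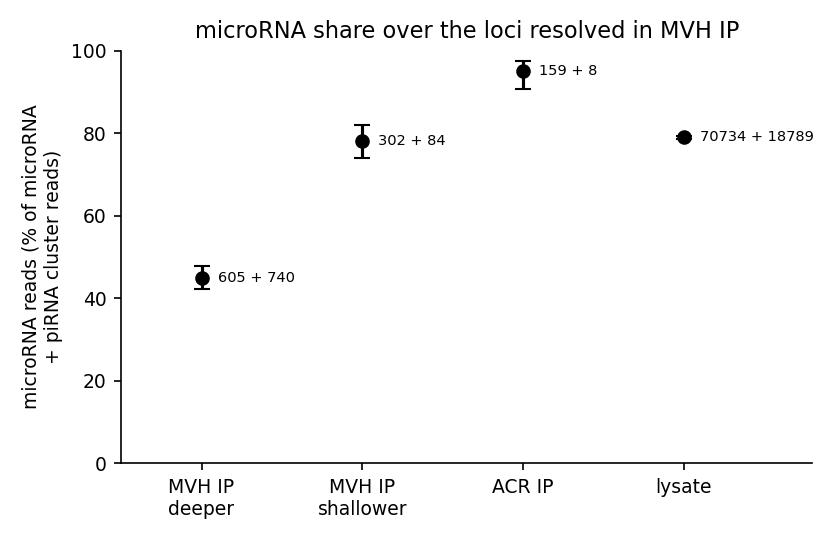
MicroRNA reads as a percentage of microRNA plus piRNA cluster reads over the loci resolved in the MVH precipitate, for each library; bars are Wilson 95% intervals and the numbers are microRNA + cluster reads. The loci are those with few MVH reads, so the set was chosen by MVH values. The deeper MVH library is at 45%, the shallower at 78.2%, the ACR library at 95.2% and the lysate at 79%.

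Mir34c, a microRNA of meiotic and haploid germ cells, was the highest feature of all 3 columns. At its locus, chr9:50911139-50911215 (mm9), it had 2472030 FPKM in the MVH precipitate, 78133 FPKM in the ACR precipitate and 8198840 FPKM in the lysate. The ACR value was 41 reads. Of microRNA reads at all loci under 200 bp, Mir34c held 17.1% in the ACR precipitate, 35.1% in the MVH column and 29.5% in the lysate. The MVH share would have given 84.1 reads, so the ACR share was 0.487 of the MVH share (0.35 to 0.661).

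Mir34b, its neighbour at chr9:50911667-50911750, had 423339, 5770 and 1215990 FPKM in the same order of columns. Its ACR share rested on 4 reads where the MVH share gave 19, a ratio of 0.21 (0.0573 to 0.538). Mir449a, at chr13:113827742-113827832, lay on the other side, with 20 ACR reads against 11.4 given by the MVH share, a ratio of 1.75 (1.07 to 2.71). Mir34a had 6 ACR reads, and 5 and 4 reads in the deeper and shallower MVH libraries. Its share at resolved loci, a narrower base, was 3.8 times higher in the ACR precipitate (1.11 to 12). Mir449c had no ACR read and 3 and 0 MVH reads. Shares have a common total, so the lower ACR share of Mir34c raises the ratios of other genes on the same base. The lower limit of 1.07 for Mir449a depends on this. Against the shallower MVH library alone, the ratio of Mir34a was 2.85 (0.676 to 13.7). Estimates for genes with the seed GGCAGUG thus lay on both sides of equal shares, but those of Mir449a and Mir34a depended on the base or the library.

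Shares of microRNA reads at resolved loci were compared for the 78 microRNA genes with reads in either precipitate and resolved MVH reads. The share was higher in the ACR precipitate beyond counting error for 9 (11.5%) and higher in the MVH precipitate for 5 (6.41%). These are 78 separate 95% intervals, not adjusted for their number. This base holds 159 of the 240 ACR reads on loci under 200 bp but leaves out high MVH loci such as Mir34c. On all loci under 200 bp, the base used for Mir34c, Mir34b, Mir449a and Mir191, ratios are higher. The miR-30 family, for example, had 1.25 at resolved loci and 2.28 on all. Intervals with a limit near 1, such as those of Mir741, Mir205, Mir18, Mir320 and Mir20a, thus depend on the base. Of the 78 genes, 39 had no ACR read, and 20 had 1 to 3. Only 4 had at least 10 ACR reads.

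The 9 with the higher ACR share were Mirlet7d, Mir100, Mir125a, Mir30a, Mir34a, Mir143, Mir145, Mir451 and Mir883a. Mirlet7d, of the let-7 family of late-development microRNAs, had 11 ACR reads and 12 and 9 MVH reads, a ratio of 2.99 (1.3 to 6.48). Mir100 had 7 ACR reads and 3 and 7 MVH reads, a ratio of 3.99 (1.29 to 11.6). Mir125a, a relative of lin-4, had 5 ACR reads and 3 and 0 MVH reads, a ratio of 9.51 (1.85 to 61.2). Mir883a, of an X-linked testis cluster, had 4 ACR reads and 3 and 0 MVH reads. Mir30a had 5 ACR reads and 5 and 2 MVH reads, a ratio of 4.07 (1.02 to 14.9).

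The 5 with the higher MVH share were Mir425, Mir375, Mir18, Mir741 and Mir205. Mir425, at chr9:108471108-108471192, had no ACR read and 43 and 7 MVH reads, with an upper limit of 0.437 on the ratio. Mir375, at chr1:74947232-74947295, had 1 ACR read and 57 and 5 MVH reads, a ratio of 0.092 (0.00229 to 0.532). Mir18 had 1 ACR read and 34 and 8 MVH reads, and its neighbour Mir20a, in the same primary transcript, had 12 ACR reads and 23 and 24 MVH reads. Mir18 thus had a ratio of 0.136 (0.00336 to 0.799) and Mir20a one of 1.46 (0.703 to 2.79). Mir741, X-linked and testis-expressed, had 2 ACR reads and 32 and 12 MVH reads. Mir205, an epithelial microRNA, had 3 ACR reads and 43 and 12 MVH reads but only 28 lysate reads, and ranked 7 in the MVH precipitate, 18 in the ACR precipitate and 126 in the lysate. Mir191, which lies beside Mir425 at chr9:108470650-108470723, ranked 3 in the MVH precipitate. It had 1 ACR read against 9.13 given by its MVH share at all loci under 200 bp, a ratio of 0.11 (0.00277 to 0.61).

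**Figure D2:**
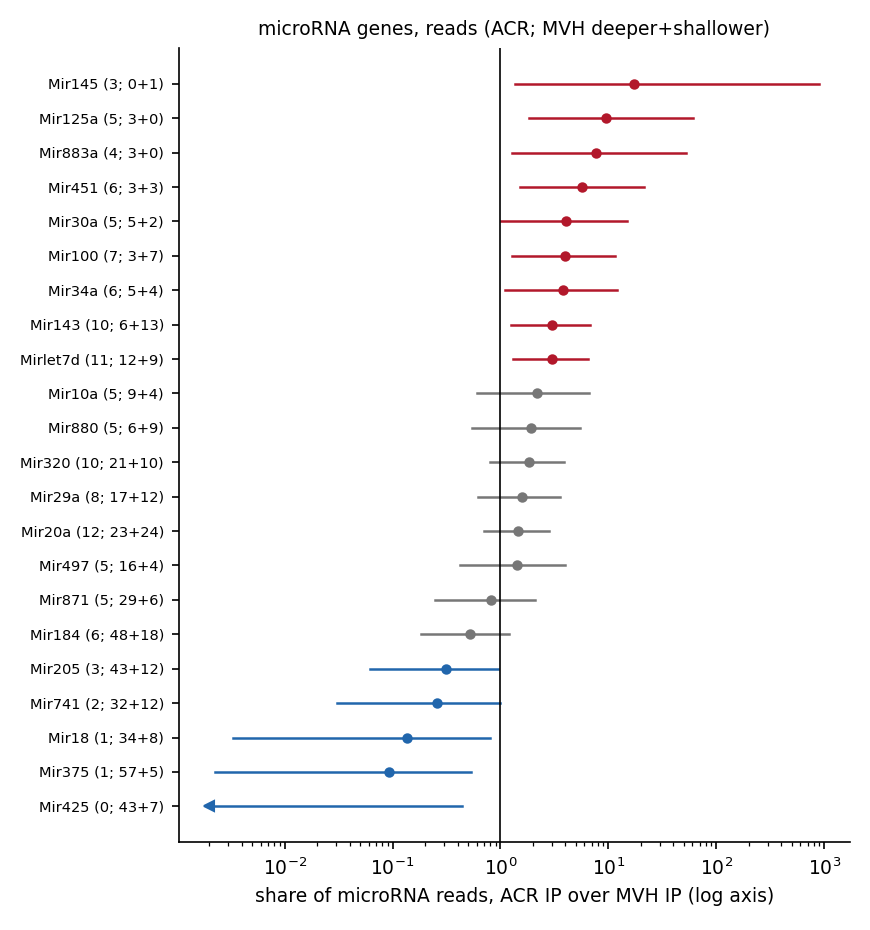
Ratio of the share of microRNA reads at resolved loci, ACR over MVH, with exact 95% intervals on a log axis for microRNA genes with at least 5 ACR reads, at least 30 MVH reads or an interval off 1; labels give the reads, and the arrow marks a gene without ACR reads. Red genes are higher in the ACR share, from Mir145 at 17.1 to Mirlet7d at 2.99, blue genes are higher in the MVH share, and grey intervals span 1.

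These differences depended on the MVH library. Against the deeper library alone, 7 of the 9 and all 5 kept intervals off 1. Against the shallower library alone, 2 of the 9 did, Mir125a and Mir883a, and none of the 5. Mir143 had 10 ACR reads, 6 in the deeper and 13 in the shallower MVH library, so its ACR share was 6.34 times that of the deeper (2.09 to 21.2) and 1.46 times that of the shallower library (0.573 to 3.61).

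By family, the miR-10, miR-99 and miR-125 group took a larger share in the ACR precipitate. Its 5 resolved members had 21 ACR reads, 13.2% of the ACR microRNA reads at resolved loci, against 3.47% in the deeper and 4.64% in the shallower MVH library and 5.93% in the lysate. The ratio was 3.42 (1.89 to 6.05). The 4 resolved let-7 genes had 16 ACR reads, 10.1%, against 3.64% and 7.62%, a ratio of 2.03 (1.07 to 3.66), and 11 of these reads were of Mirlet7d. With unresolved loci under 200 bp included, 9 let-7 loci had 23 ACR reads against 21.3 given by their MVH share at all such microRNA loci, a ratio of 1.08 (0.685 to 1.62). Of these 9, 5 were low in the lysate column of the ACR table, as described below for genes at 0. On that wider base the miR-10, miR-99 and miR-125 group had 22 against 4.96, a ratio of 4.44 (2.78 to 6.72), and the Mir34 and Mir449 family 71 against 116, a ratio of 0.613 (0.479 to 0.774). The 14 resolved X-linked testis microRNAs had 28 ACR reads, 17.6%, against 18.8% and 22.5%, a ratio of 0.878 (0.567 to 1.31). The 4 genes of the miR-17-92 group had 10.7% against 12.1% and 11.3%, and the 4 of the miR-30 family 5.66% against 4.63% and 4.3%. Their intervals spanned 1, as did that of the X-linked group. On the wider base the ratio was 1.42 (0.826 to 2.27) for the miR-17-92 group and 1.49 (0.99 to 2.15) for the X-linked group. For the miR-30 family it was 2.28 (1.04 to 4.33), an interval above 1. The wider base includes Mir34c, whose lower ACR share raises the ratios of other families.

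Some microRNAs best known from other cells had reads in both precipitates. Of the microRNAs of vessel wall and muscle, 3 of 8 listed genes were members. The resolved ones, Mir143 and Mir145, held 8.18% of ACR reads at resolved loci, 0.992% of the deeper and 4.64% of the shallower MVH library and 2.38% of the lysate. Of the blood microRNAs, 2 of 6 were members. Mir451, of red blood cells, had 6 ACR reads and 3 and 3 MVH reads, and Mir142, of white blood cells, had 0 and 2 and 4. Of the Sertoli and gonadal somatic microRNAs, 3 of 5 were members. Mir202 had 1 ACR read and 1 and 3 MVH reads, while Mir199a-1 and Mir199b were at 0 in the ACR precipitate with 10577 and 1788 FPKM in the MVH precipitate, and both were low in the lysate column in the same way. The listed protein-coding marker genes of spermatogonia, Leydig cells, Sertoli cells and peritubular or blood cells had no member at 5 FPKM in the lysate. The part of other cells in the microRNA differences was not tested.

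Several microRNA genes with high MVH values were listed at 0 in the ACR precipitate, which was so for 92 of 159 microRNA genes and for 760 of all 1265 members (60.1%). Mir16-1 had 187010 FPKM and Mir16-2 had 162127 FPKM in the MVH column, Mir29b-1 86431, Mirlet7a-1 58992, Mirlet7a-2 51903 and Mirlet7c-2 48531. For each of these genes the lysate value in the ACR table was far below the value for the same lysate in another table of the series. Mirlet7a-1, for example, was 62.3 times lower after scaling on clusters, and Mir16-1 14.6 times. This held, by more than 2-fold, for 32 of 158 microRNA genes. The genes of let-7a and miR-16 have near-identical copies elsewhere in the genome, so their zeros are uncertain. Mir425 and Mir93, with 89480 and 47571 FPKM in the MVH column and 0 in the ACR column, were not among them.

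Other than piRNA_cluster_177, most piRNA clusters with enough reads took shares of cluster reads within 2-fold of each other in the 2 precipitates. Over the 138 clusters above 0 in both, Spearman's correlation was 0.83 between the precipitates, 0.96 between the MVH precipitate and the lysate, and 0.85 between the ACR precipitate and the lysate. Over all 180 clusters, zeros included, the values were 0.86, 0.97 and 0.89. These values are across clusters, which share libraries and lengths. The MVH share, scaled to the 3278 ACR cluster reads left without piRNA_cluster_177, gave at least 10 ACR reads for 57 of 154 clusters. Of these 57, 50 lay within 2-fold, with a median ratio of 0.932. All 57 lay within 2-fold between the lysate and the MVH column.

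Among these 57 the ACR share was higher beyond counting error for 4 clusters (7.02%) and lower for 10 (17.5%). The shares have a common total, so piRNA_cluster_39, with 255 ACR reads against 37.4 given, lowers the ratios of the other clusters. Upper limits close to 1, such as 0.986 for piRNA_cluster_165 and 0.999 for piRNA_cluster_80, depend on this. piRNA_cluster_165, at chr15:74436458-74478572, had 286 ACR reads against 326 given by the MVH share. Its ratio was 0.878 (0.779 to 0.986), and its values were 1891 FPKM in the MVH precipitate, 17 FPKM in the ACR precipitate and 3127 FPKM in the lysate. piRNA_cluster_68, whose value did not come out whole and is not among the 57, had about 317 ACR reads. piRNA_cluster_174 had 163 reads against 135, and piRNA_cluster_187, close to it on chromosome 17, had 108 against 140. piRNA_cluster_8 had 108 against 65.1, a ratio of 1.66 (1.36 to 2), and piRNA_cluster_99 had 23 against 11.2, a ratio of 2.05 (1.3 to 3.07). The lower ones included piRNA_cluster_107 with 40 against 67.7 and piRNA_cluster_79 with 39 against 65.1.

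piRNA_cluster_177 stood apart. At chr17:39983505-39984882 it had 28330 FPKM in the MVH precipitate, 4257 FPKM in the ACR precipitate and 9316 FPKM in the lysate, the highest cluster of each precipitate. It had 2017 ACR reads where the MVH share gave 137, a ratio of 14.7 (14.1 to 15.4). It held 4.01% of the cluster signal in the MVH column and 0.825% of the lysate cluster reads. Its share was highest in the ACR precipitate and lowest in the lysate. piRNA_cluster_39, at chr5:115300315-115302629, followed with 255 ACR reads against 37.4, a ratio of 6.81 (6 to 7.7). Its lysate share was 0.524 of its MVH share, so both precipitates held more of it than the lysate did.

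piRNA_cluster_49, at chr6:85060731-85076088, was listed at 0 in the ACR precipitate where its MVH share gave 65 reads, which leaves an upper limit of 0.0567 on the ratio. The named gene Gm5878 has the same locus and had 12.9 FPKM in the ACR precipitate, 550 FPKM in the MVH precipitate and 1529 FPKM in the lysate. How reads of such a region were divided between its entries was not tested. piRNA_cluster_16 was at 0 where 18.3 reads were given, and 1700006A11Rik, at the same locus, had 12.5 FPKM in the ACR precipitate, 951 FPKM in the MVH precipitate and 1963 FPKM in the lysate. Both clusters are among the 10 lower ones. In all, 13 clusters have a named gene at the same locus, and for the 2 of these at 0 in the ACR precipitate the gene was above 0. Of the 42 clusters listed at 0, 37 had fewer than 3 reads given by the MVH share, so their absence was not detectable at this depth.

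**Figure D3:**
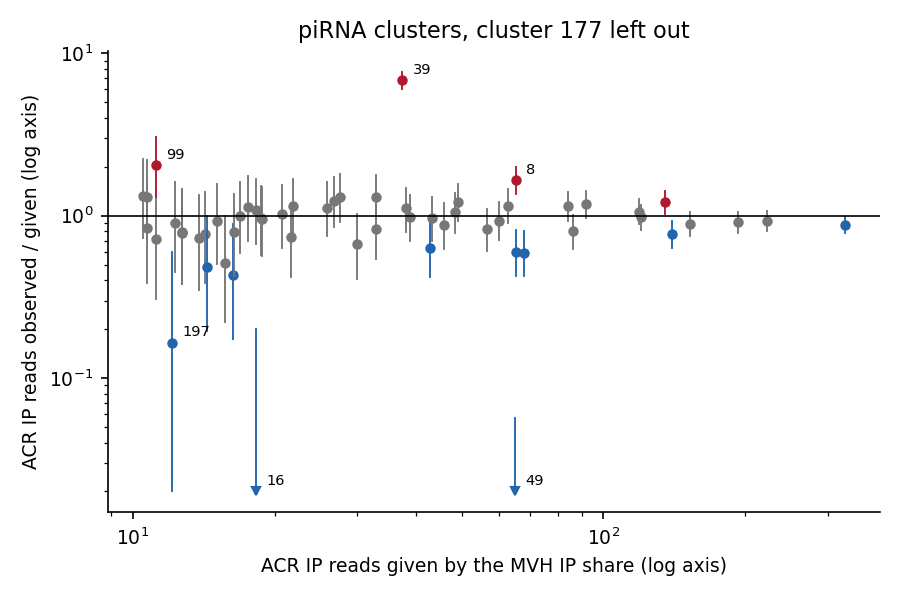
Observed over given ACR reads (log axis) against the ACR reads given by the MVH share (log axis) for the 57 piRNA clusters with at least 10, without piRNA_cluster_177; bars are exact Poisson 95% intervals, arrows mark clusters without reads, and numbers name clusters. Most clusters sit near 1, and piRNA_cluster_39 sits at 6.81.

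Reads on named genes were far more frequent in the ACR precipitate, and few genes held most of them. Gene reads are approximate, since transcript lengths were taken from a newer annotation. There were about 205 gene reads per 100 cluster reads in the ACR library, against 8.33 in the MVH column and 3.31 in the lysate. The 10 genes with the most reads held about 9394 of the 10865 ACR gene reads (86.5%). The same 10 genes, chosen by their ACR reads, held 54% of the gene signal in the MVH column and 5.53% of the lysate gene reads. Without them the values were 27.8, 3.83 and 3.12 per 100 cluster reads, so the ratio of ACR to MVH went from 24.6 to 7.26.

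Smc6, a subunit of the SMC5/6 complex of chromosome maintenance, had about 2509 ACR reads. Its level was 1528 FPKM in the MVH precipitate, 1154 FPKM in the ACR precipitate and 26.6 FPKM in the lysate. Plekhg4, a guanine nucleotide exchange factor, had about 2475 ACR reads and 1182, 1551 and 34.8 FPKM in the same columns. Lars2, the mitochondrial leucyl-tRNA synthetase, had about 925 ACR reads and 4220, 623 and 502 FPKM. Like piRNA_cluster_177, it was classed as a ribosomal RNA-like locus, and whether its reads come from its messenger RNA was not tested. Apoe, an apolipoprotein, had about 391 ACR reads and 152, 804 and 5.44 FPKM.

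Also among the 10 were 2410003K15Rik, with about 1085 ACR reads, Cacna1d, a calcium channel subunit, with about 807, Smcr8 with 400, Snrnp48, a protein of the minor spliceosome, with 237 and Prodh2 with 182. These 9 genes were chosen by their ACR reads, so a high ACR level follows from the choice. Relative to cluster medians, all 9 were higher in the ACR precipitate than in the MVH precipitate, as were most named genes. Of 249 named genes above 0 in both, 237 were at least 2-fold lower in the MVH precipitate on this scale. The 9 genes were also higher in the MVH precipitate than in the lysate. For Smc6 the centred difference, MVH less ACR, was -6.12, for Plekhg4 -6.92, for Lars2 -3.77 and for Apoe -8.93 (log2). Smc6 ranked 170 in the MVH precipitate, 68 in the ACR precipitate and 581 in the lysate. On uncentred FPKM within the ACR table, named genes at least 10-fold above the lysate numbered 11, and all 11 also ranked higher in the MVH precipitate than in the lysate.

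**Figure D4:**
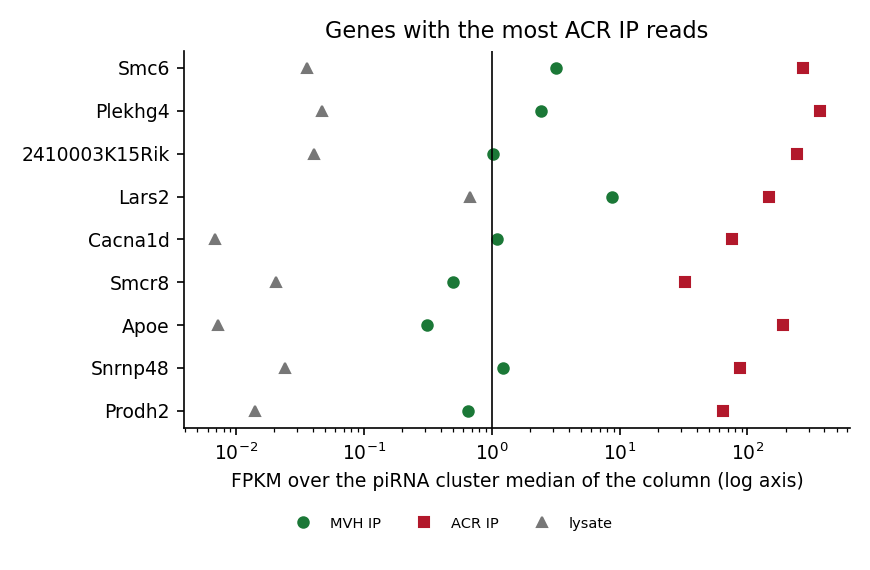
FPKM of the 9 named genes, all among the 10 with the most ACR reads, divided by the piRNA cluster median of the same column (log axis), in the MVH precipitate, the ACR precipitate and the lysate. The genes were chosen by their ACR reads, which favours a high ACR value. Every gene is highest in the ACR precipitate and lowest in the lysate, and Apoe and Plekhg4 lie far to the right in the ACR column.

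Most other genes rested on few reads. Of 263 named genes above 0 in the ACR precipitate with a known length, 174 had about 3 reads or fewer. Messages of the chromatoid body and piRNA pathway were low in all columns. Of 32 listed genes 9 were members, and 7 of these 9 were at 0 in the ACR precipitate, against 63.3% of all named genes. Piwil1, which encodes MIWI, had 7.61 FPKM in the MVH precipitate and 12 FPKM in the lysate, Piwil2, which encodes MILI, 10.2 and 10.7, and Eif2c2, which encodes Argonaute 2, 56.1 and 66.5. Eif2c2 has the locus of piRNA_cluster_169, which had 1.27 FPKM in the ACR precipitate. Pld6, a mitochondrial nuclease of piRNA processing, and Ybx2, a germ cell RNA-binding protein, were above 0 with about 1 ACR read each. Ddx4 and Acr, which encode the precipitated proteins, were not members.

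Of 20 listed acrosome genes 4 were members, and 3 of these 4 were at 0 in the ACR precipitate, against 63.3% of all named genes. The member above 0 was Acrbp, which encodes the proacrosin-binding protein. Acrbp had 10.5 FPKM in the MVH precipitate, 7.04 FPKM or about 4 reads in the ACR precipitate and 8.43 FPKM in the lysate. Late spermatid genes were often at 0 in both. Of 24 members, 20 were at 0 in the ACR precipitate and 14 in the MVH precipitate, against 60.1% and 19.4% of all members. Prm1, a protamine that packs sperm DNA, had 28.3 FPKM in the MVH precipitate, 0 in the ACR precipitate and 347 FPKM in the lysate. Tnp1 and Tnp2, the transition proteins, were at 0 in both precipitates with 195 and 122 FPKM in the lysate. Hspa2, a spermatocyte chaperone, had 17.4, 10.7 and 16.0 FPKM, with about 10 ACR reads.

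Among named genes at 0 in the ACR precipitate, the highest in the MVH precipitate were Mif, a cytokine, with 534 FPKM, Stox1 with 305, Asb1 with 266 and Hist1h2ba, a testis histone, with 91.8. Mif has the locus of piRNA_cluster_108, which had 6.37 FPKM in the ACR precipitate. Stox1 has the locus of piRNA_cluster_100, piRNA_cluster_102 and piRNA_cluster_103, which had 3.65, 6.03 and 3.92 FPKM there. How reads were divided between these entries was not tested, so such a zero does not show that the region had no ACR read. Of 23 ribosomal protein genes 17 were at 0 in the ACR precipitate, where 63.3% of all named genes were, and 9 in the MVH precipitate, against 19.4% of all members. Small structured RNA was mostly listed at 0. Of 47 genes 45 were at 0 in the ACR precipitate and 38 in the MVH precipitate, against 60.1% and 19.4% of all members. Their median in the lysate was 1720 FPKM. At a microRNA locus 1 ACR read was worth a median of 1560 FPKM, and the ACR cluster median was 4.24 FPKM against 746 FPKM in the lysate. In the MVH column, 1 read of the deeper library at Mir99b was worth 2929 FPKM. Zeros of either precipitate at such short loci therefore do not show absence. Snord57 and Snord104 had 16192 and 5048 FPKM in the MVH precipitate, 0 in the ACR precipitate and 1804 and 6325 FPKM in the lysate. Snord2, a C/D box small nucleolar RNA, had 6327 FPKM in the MVH precipitate, 2831 FPKM in the ACR precipitate and 277707 FPKM in the lysate.

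Over single features, 473 members were above 0 in both columns. On the centred scale 4 of them (0.846%) were at least 2-fold higher in the MVH precipitate and 337 (71.2%) at least 2-fold lower. The 4 were piRNA_cluster_178 at 1.77, piRNA_cluster_143 at 1.70, piRNA_cluster_197 at 1.63 and D130017N08Rik at 1.24 (log2 difference). D130017N08Rik had 1244 FPKM in the MVH precipitate and 4.69 FPKM in the ACR precipitate. piRNA_cluster_33, at the same locus, had 244 and 5.5 FPKM and was not among the 4. piRNA_cluster_197 had 549 FPKM in the MVH precipitate and 0.926 FPKM, or 2 reads, in the ACR precipitate. The median difference was -0.08 over 138 clusters, with 3 higher and 20 lower. It was -4.91 over 249 named genes, with 1 higher and 237 lower, and -4.10 over 67 microRNA genes, with none higher and 63 lower. The highest microRNA gene was Mir191 at 0.61.

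The depth of the ACR library limits these counts. Of 45 lower microRNA genes at loci under 200 bp, 38 would be lower by 2-fold on a single ACR read, as would 214 of 229 lower named genes with a known length. Only 2 of the 102 microRNA genes could have been 2-fold higher on a single read. With members at 0 entered at the pseudocount, the median of all microRNA genes turned to 4.06, and that of all named genes was -4.70. The read shares above count the zeros, and the direction for single microRNA genes is not given by the median.

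Among members above 0 in both columns, the lowest differences belonged to Tmem67, of the ciliary transition zone, at -10.29, 1700029F12Rik at -9.48, Gnb2l1, the ribosomal scaffold RACK1, at -9.40 and Klhl10, a spermatid adaptor of ubiquitin ligase, at -9.15. Tmem67 had 0.939 FPKM in the MVH precipitate, 25.2 FPKM or about 33 reads in the ACR precipitate and 5.27 FPKM in the lysate. Klhl10 had 3.84, 28.8 and 5.21 FPKM. Another 32 members were above 0 in the ACR precipitate alone. The highest of these, an assembled transcript, had 3228 FPKM there, 0 in the MVH precipitate and 108 FPKM in the lysate.

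By rank, Spearman's correlation between the precipitates was 0.72 over the 473 members above 0 in both. It was 0.48 over 67 microRNA genes and 0.35 over 249 named genes. The MVH precipitate was nearer to the lysate, with correlations of 0.92, 0.69 and 0.63 over the same sets, and the ACR precipitate had 0.60, 0.45 and 0.07. Of the 10 highest features of each precipitate, all microRNA genes, 4 were shared: Mir34c, Mir15b, Mir184 and Mir449a. Of the 50 highest, 25 were shared. These rank correlations are descriptions across features of libraries that differ in depth.

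**Figure D5:**
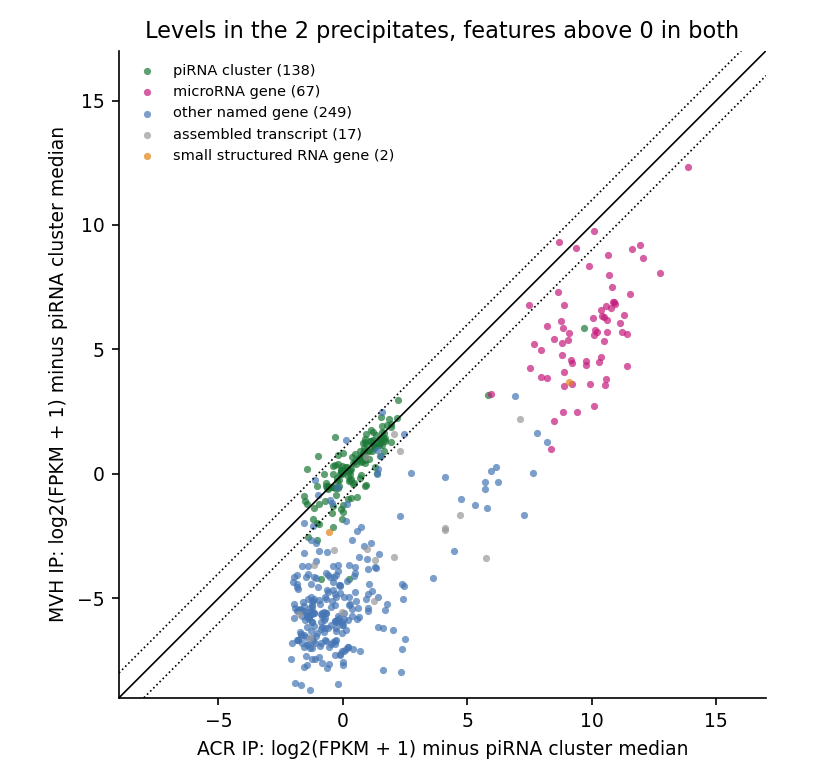
Log2(FPKM + 1) less the piRNA cluster median, MVH precipitate (vertical) against ACR precipitate (horizontal), for the 473 features above 0 in both, coloured by class; the solid line marks equal levels and the dotted lines 2-fold. Clusters lie along the line with a median difference of -0.08, while named genes and microRNA genes lie below it, medians -4.91 and -4.10, and turn to -4.70 and 4.06 with zeros included.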

How the data were processed

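The deposited tables hold FPKM values made by the authors. TopHat, Cuffdiff and mm9 are named, without versions, per the submitters' processing notes. How reads with several matches were handled is not given here. The unit was taken from Cuffdiff's column names and the values. MVH transcripts of 1 symbol and locus were summed, and 4 other value columns of the series were not used.

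Values were compared as log2(FPKM + 1), centred on clusters, and a 2-fold difference was counted. Reads were recovered with a fragment length of mean 200, SD 80 and range 15 to 440, and gene reads with GENCODE M21 lengths. The recovery was tested on data simulated at microRNA loci with the same length model. Such data cannot check that a step is 1 read, that the 2 MVH steps are the 2 libraries, or the recovery at clusters. The labels give no library totals, so depth is known only as reads on the features listed here.

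Named features were the 12 highest and lowest differences, the 10 highest levels of each column and of clusters, the 8 highest at 0 in the ACR precipitate and leading list members; 1 of the 10 genes with the most ACR reads is not reported here. Members and lists were chosen with earlier results of these data known. Scripts ran in Python 3.11.15 (scipy 1.17.1, pandas 2.3.3, numpy 2.4.6, with plots by matplotlib 3.10.9).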

Additional observations from a re-analysis of the deposited data

How the results depend on the processing

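The count higher in the MVH precipitate was 7 with a pseudocount of 0.1 FPKM, 15 with 10 FPKM, 140 when centred on all members, 359 without centring and 123 with zeros included. The count lower was 528 with lysate at or above 1 FPKM, 160 at or above 20 FPKM, 754 with no minimum, 16 without centring and 962 with zeros included. The microRNA median was -2.69 with a pseudocount of 10 FPKM, -1.89 centred on all members, 2.43 without centring, 4.06 with zeros included and -4.66 at loci of at least 200 bp. The named gene median was -4.51 with a pseudocount of 10 FPKM, -5.71, -3.47 and -6.04 with lysate minimums of 1, 20 and none, -2.71 centred on all members, 1.61 without centring and -4.70 with zeros included. Columns were normalized separately, so values without centring compare scales. Spearman's correlation was 0.53, 0.83 and 0.42 with lysate minimums of 1, 20 and none, 0.42 with zeros included and 0.61 at loci of at least 200 bp. With lysate at or above 20 FPKM, 331 members were at 0 in the ACR precipitate.

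The following ratios and their alternatives were chosen after the data were seen. The microRNA to cluster ratio at resolved loci, 18.1 against both MVH libraries, ranged from 5.53 to 24.3 against each alone. At all short loci it went from 4.1 to 6.35 without piRNA_cluster_177 and to 6.98 also without microRNA loci low in the lysate column. The gene ratio went from 24.6 to 7.26 without the 10 genes. No paired analysis was possible because the MVH values are 1 deposited column and the ACR precipitate has 1 library. Except where a value's construction shows it, the cause was not tested.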
